A study of Mus musculus with 8 samples.

Results

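The coding sequence (CDS) of mouse messenger RNAs was examined for N6-methyladenosine (m6A) calls in 4 cultured cell types. The deposited table lists 19776 RefSeq transcripts, and all 18578 coding transcripts (accessions beginning with NM) were taken; the other 1198 are non-coding (NR). Each transcript has 5 regions with a yes/no call per cell type, and the CDS call is the readout here. The other regions are the 5' UTR, the 3' UTR and regions headed TcSS and TsTS, abbreviations that are not defined in the headers and are kept as they stand. A call says that the authors counted the region as modified; it has no height and no position within the region.

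m6A is a methyl group on adenosines inside mRNA. It is placed by a nuclear writer complex built around METTL3 and METTL14, can be removed by the erasers FTO and ALKBH5, and is read by proteins with a YTH domain. In mammalian mRNA it is known to occur within short motifs such as GGAC, to be frequent in long internal exons and near stop codons, and to mark many transcripts of pluripotent cells for turnover.

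The 4 cell types were embryonic stem cells (ESC, passage 14) and induced pluripotent stem cells (iPSC, passage 22), both kept with leukemia inhibitory factor, neural stem cells (NSC, passage 16) isolated from fetal brain at E12.5 and kept with EGF and bFGF, and testicular Sertoli cells (SC, passage 2) kept in serum. All were of strain C57BL/6, and the labels give no genotype or treatment beyond these media. For each cell type 1 library of mRNA fragments of about 100 nt was enriched with an m6A antibody and 1 was sequenced without enrichment, and the unenriched library gave the expression values in FPKM (fragments scaled to transcript length and to sequencing depth). With 1 library per cell type and assay, no difference has a replicate check and no test was possible, so shares carry exact (Clopper-Pearson) 95% intervals over transcripts, which cover counting error only. Where 4 values follow each other unlabelled, they stand in the order ESC, iPSC, NSC and SC.

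The sequences below give GGACT context from a few genes that recur in the results, and are not positions of calls. Each line gives up to 30 bases of coding sequence from GENCODE M21 transcripts (build GRCm38), 5' to 3', with GGACT in capitals where it occurs. The first group holds pluripotency genes whose CDS call differed between cell types, and the second holds genes of the m6A machinery, including a set of YTH readers.

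Pou5f1: ggacctcaggttGGACTgggcctagtcccc

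Nanog: agcagaagatgcGGACTgtgttctctcagg

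Klf4: agctccccaccaGGACTacccctacactga

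Myc: catcatcatccaGGACTgtatgtggagcgg

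Mettl3: gcgacggaagcaGGACTctgggcacttgga

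Fto: cccgagtcgtccGGACTttaccagtacagc

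Ythdf1: gaagtcccctgtGGACTacggcaccagcgc

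Ythdf2: gaaatctgctgtGGACTacaacacatgtgc

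Ythdf3: gaagtctgttgtagactataatgcttatgc

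In the order given, they begin at bases 214, 287, 941, 429, 72, 1364, 1356, 1419 and 1437 of the coding sequence, and the genes lie on chromosomes 17, 6, 4, 15, 14, 8, 2, 4 and 3. The Ythdf2 stretch is the best ungapped match to that of Ythdf1, with 22 of 30 bases identical, and both hold the motif at the same place. The best match in Ythdf3, with 17 of 30 identical bases, does not hold it, although GGACT occurs elsewhere in the Ythdf3 coding sequence. Of the matched coding sequences 75.6% hold GGACT at least once on the transcript strand, and 69.0% hold its reverse complement AGTCC, so a match by itself sets no transcript apart. The call columns do not say which of these adenosines, if any, carries the methyl group.

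Markers of the labelled cell type were present in the pluripotent cells and in part in the others. Pou5f1, the OCT4 gene, reached 602 FPKM in ESC and 554 FPKM in iPSC, whereas it was listed at 0 in NSC and at 0.0761 FPKM in SC. NSC held Pax6 at 7.46 FPKM and Sox2 at 14.3 FPKM, but Sox1 was listed at 0 and Olig2 stood at 0.0631 FPKM. SC held the Sertoli markers Wt1 and Sox9 at 105 and 106 FPKM, but also the smooth muscle and peritubular marker Acta2 at 1795 FPKM, Col1a1 at 540 FPKM and the Leydig marker Star at 56.0 FPKM. Their part in the results below was not tested. The summed FPKM of coding transcripts ran from 379722 in iPSC to 807192 in SC; the columns thus have unequal totals, and read depth is unknown.

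Between 42.6% and 48.7% of the expressed coding transcripts carried a CDS call, depending on the cell type. Among transcripts at 1 FPKM or more in the cell type, 5006 of 11741 were called in ESC (42.6%, interval 41.7 to 43.5%) and 5704 of 12072 in iPSC (47.2%, 46.4 to 48.1%), and 5862 of 12925 in NSC (45.4%, 44.5 to 46.2%) and 6515 of 13367 in SC (48.7%, 47.9 to 49.6%). With a minimum of 5 FPKM the order of the pluripotent types turned, with 45.6% in ESC and 44.8% in iPSC. Over all 18578 coding transcripts, expressed or not, the shares were 32.3% in ESC and 37.6% in iPSC, and 36.3% in NSC and 38.8% in SC, and 10922 transcripts were called in at least 1 cell type. Transcripts under 1 FPKM were called less often, in 14.6% of cases in ESC and 19.8% in iPSC, and 15.5% in NSC and 13.3% in SC.

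Some coding transcripts were almost never called, whatever their level. The coding transcripts of 191 genes that also have a non-coding (NR) line in the table number 326, and 2 of them, both of Gpr146, held a call in any region of any cell type. At 1 FPKM or more, CDS calls among them numbered 0 of 200 in ESC and 0 of 225 in iPSC, and 0 of 246 in NSC and 1 of 250 in SC, which allows at most 1.83%, 1.63%, 1.49% and 2.21%. The NR lines themselves held 0 calls among 1198. Of 110 lines whose accession carries a numbered suffix, 12 held any call. A missing call on such a line therefore does not show an unmodified transcript. The counts below still keep these lines as uncalled, except where they are said to be left out. Ythdf3 and Ankrd11, described below, have lines of this kind, as do the list members Zfp57, Zfp207 and Cep57. Without all these lines the CDS share was 43.5% in ESC and 48.4% in iPSC, and 46.4% in NSC and 49.7% in SC. Of transcripts at 1 FPKM or more in all 4 cell types, 2856 of 8905 were then called in none, against 3032 of 9081 with them.

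Transcripts with a long coding exon were called far more often than those whose coding exons are all short. Where the longest coding exon was at most 150 nt, 12.4% of transcripts were called in ESC and 8.19% in iPSC, and 13.2% in NSC and 12.6% in SC. Where it was over 2000 nt, the shares were 88.5% in ESC and 95.0% in iPSC, and 85.5% in NSC and 93.9% in SC, and the intervals of these end classes did not overlap in any cell type. The step was steepest between 200 and 1000 nt. In medians, the longest coding exon of CDS-called transcripts was 447 nt in ESC and 471 nt in iPSC, and 428 nt in NSC and 483 nt in SC, against 209, 201, 216 and 209 nt in transcripts without the call.

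**Figure D1:**
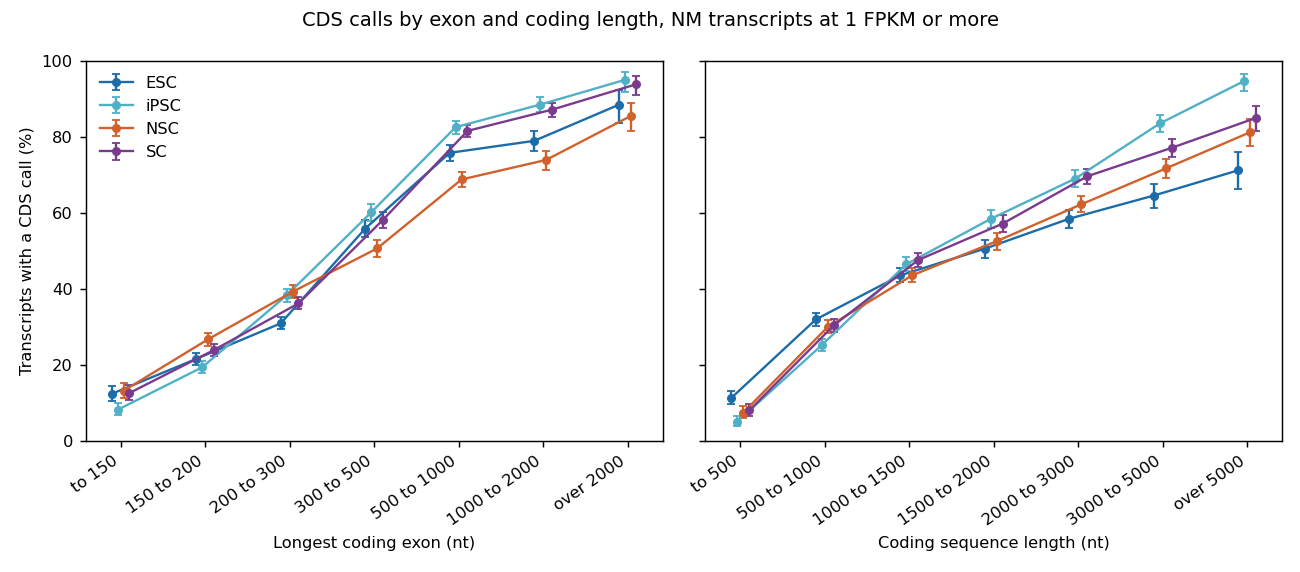
Share of coding transcripts at 1 FPKM or more with a CDS call (y axis, percent), by the length of the longest coding exon (left) and of the whole coding sequence (right), both in nt. Points are shares in each of the 4 cell types and bars are exact 95% intervals. All lines climb to the right, from 12.4% to 88.5% over exon classes in ESC, and the ESC line lies above the iPSC line at short coding sequences and below it at long ones.

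Total coding length showed the same direction, and here the cell types parted. The CDS-called transcripts had a median coding length of 1590 nt in ESC and 1845 nt in iPSC, and 1785 nt in NSC and 1791 nt in SC, against 1038, 957, 1074 and 1011 nt without the call. In coding sequences of at most 500 nt, 11.3% were called in ESC and 5.08% in iPSC. In coding sequences over 5000 nt, 71.3% were called in ESC and 94.8% in iPSC, with NSC at 81.3% and SC at 85.1%. So ESC lay above iPSC in short coding sequences and below it in long ones, in both cases with intervals that did not overlap (9.65 to 13.2% in ESC and 3.92 to 6.47% in iPSC for the shortest; 66.2 to 76.0% in ESC and 92.2 to 96.7% in iPSC for the longest). These intervals are over transcripts of 1 library each and say nothing of the spread between cultures.

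Exon length went with the call also within a given coding length. Among coding sequences of 1000 to 2000 nt in ESC, 24.3% were called where the longest exon was at most 200 nt, 37.1% at 200 to 400 nt, 73.2% at 400 to 1000 nt and 74.5% above that. The corresponding end values were 25.0% and 80.0% in iPSC, 31.7% and 65.5% in NSC and 29.5% and 80.9% in SC. Coding length also went with the call at a given exon length, though not evenly. At a longest exon of 200 to 400 nt, ESC stood at 26.4% up to 1000 coding nt and 45.4% at 2000 to 4000 nt. Above 4000 nt the ESC share was 39.8% (interval 32.1 to 47.8%). For these last classes iPSC gave 59.7% and 78.7%, NSC 52.5% and 65.9%, and SC 57.4% and 63.0%. With an exon over 1000 nt, the ESC share climbed from 74.5% at 1000 to 2000 coding nt to 89.3% above 4000 nt.

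Where the longest exon sat went with whether the call stood alone. When it was an internal coding exon, 25.7% of CDS-called transcripts in ESC had no other called region, against 10.8% when it was the last coding exon. The same comparison gave 22.0% and 13.4% in iPSC, 24.9% and 18% in NSC and 33.9% and 17.3% in SC. Of CDS-called transcripts whose longest exon is last, 82.7% in ESC were also called in TsTS, against 61.9% with an internal longest exon.

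The same comparison could be made between isoforms of a gene. Among genes with several coding transcripts at 1 FPKM or more, the isoforms differed in CDS call in 55 of 1115 genes in ESC (4.93%) and 56 of 1297 in iPSC (4.32%), and 62 of 1621 in NSC (3.82%) and 76 of 1687 in SC (4.51%). Where lengths were known, the called side had the longer longest exon in 30 of 54 such genes in ESC, an equal one in 19 and a shorter one in 5. The counts were 29, 20 and 4 of 53 in iPSC, 40, 15 and 4 of 59 in NSC, and 50, 17 and 6 of 73 in SC. Coding length parted the isoforms more often than exon length did. The called side had the longer coding sequence in 41 of 54 genes in ESC and 38 of 53 in iPSC. In NSC this held for 47 of 59 genes and in SC for 66 of 73. The called side had the higher FPKM in 26 of 54 genes in ESC and 30 of 53 in iPSC, and in 36 of 59 in NSC and 45 of 73 in SC. In the 5 genes described next it had the lower one in the cell type given. It had the higher one for Ddx39b in NSC (107 FPKM against 59.3) and for Pou5f1 in iPSC (554 FPKM against 2.15).

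Naca, which encodes the alpha subunit of the nascent polypeptide-associated complex, had such a pair in iPSC. Its long isoform NM_001113199, with a longest coding exon of 5916 nt, was called at 1.87 FPKM, and its short isoform NM_013608, with an exon of 147 nt, stood at 432 FPKM without a call. Tsc22d1, a transcriptional regulator of the TSC22 family, behaved alike in SC: the isoform with a 2927-nt exon was called at 14.2 FPKM and the isoform with a 255-nt exon was not called at 1813 FPKM. Ndufv3, a complex I subunit gene, had a called isoform with a 1092-nt exon at 12.4 FPKM in ESC and an uncalled one with a 140-nt exon at 220 FPKM. For Sin3b, a corepressor scaffold, the long isoform was called at 18.6 FPKM and the short one was not at 511 FPKM in SC. Calls also differed between isoforms of equal exon structure, as for the RNA helicase gene Ddx39b in iPSC, where both isoforms have 1284 coding nt and stood at 81.1 FPKM with the call and 98.2 FPKM without it.

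Calls in the other regions followed the longest coding exon less steeply in percentage points. In ESC the CDS share was 18.6% where the longest exon was at most 200 nt and 80.9% where it was over 1000 nt; for TsTS the values were 36.4% and 64.2%, for the 3' UTR 21.1% and 33.2%, and for TcSS 19.4% and 12.1%. TcSS ran the other way elsewhere, with 8.92% and 20.7% in iPSC, 11.4% and 16.6% in NSC, and 10.1% and 15.4% in SC. For the other regions in iPSC the values of the same end classes were 15.8% and 90.0% for the CDS, 30.7% and 66.3% for TsTS, and 24.3% and 45.5% for the 3' UTR. Below 200 nt the TsTS share lay above the CDS share in all 4 cell types, and above 400 nt it lay below.

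**Figure D2:**
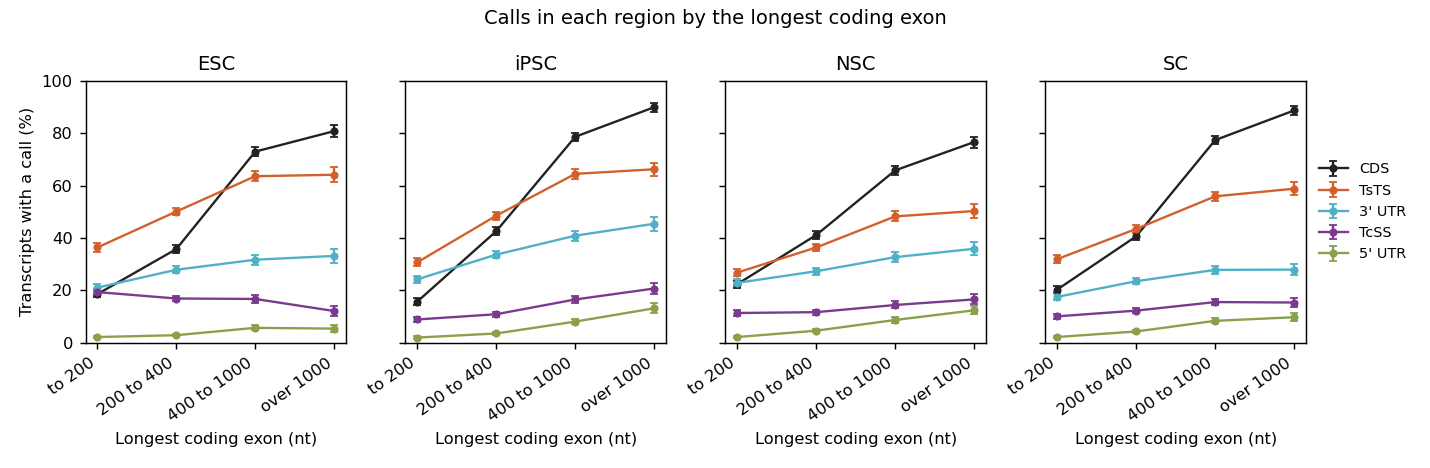
Share of coding transcripts at 1 FPKM or more with a call in each of the 5 regions (y axis, percent) by the length of the longest coding exon (x axis, nt), 1 panel per cell type, with exact 95% intervals. The CDS line is the steepest in every panel, running from 18.6% to 80.9% in ESC and from 20.3% to 88.8% in SC, and crosses the TsTS line.

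A CDS call seldom stood alone. The CDS was the only called region in 994 of 5006 CDS-called transcripts in ESC (19.9%) and 1086 of 5704 in iPSC (19%), and 1307 of 5862 in NSC (22.3%) and 1802 of 6515 in SC (27.7%, interval 26.6 to 28.8%). Among CDS-called transcripts TsTS was called in 69.4% in ESC and 66.8% in iPSC, and 62.5% in NSC and 60.5% in SC, against 35.6%, 31.7%, 17.3% and 29.7% of transcripts without a CDS call. The 5' UTR was called in 6.09% of CDS-called and 1.68% of other transcripts in ESC, and in 10.9% and 1.60% in NSC. Of transcripts with any call the CDS took part in 60% in ESC and 66.4% in iPSC, and 75.7% in NSC and 70.1% in SC.

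The CDS was the sole called region in all 4 cell types for a set led by Hspa8, the constitutive HSC70 chaperone, at 1467 FPKM in ESC and 1482 FPKM in iPSC, with 790 FPKM in NSC and 3031 FPKM in SC. Nono, a paraspeckle RNA-binding protein gene, followed at 84.8, 135, 174 and 180 FPKM in the same order. Others were Mcm7, a subunit of the replicative helicase, the initiation factor gene Eif2a, the splicing helicase gene Dhx15, the co-chaperone gene Dnajc7 and Prrc2a, whose longest coding exon is 1842 nt.

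Level had a weaker and uneven relation to the call. The share peaked between 5 and 20 FPKM, at 47.0% in ESC and 51.3% in iPSC, and 51.1% in NSC and 53.6% in SC, except that ESC was level up to 100 FPKM (47.0%). At 100 FPKM or more it was 33.5% in ESC and 19.9% in iPSC, and 18.3% in NSC and 37.8% in SC, below every other expressed class of the same cell type. Most transcripts of the highest class were short, but within coding sequences of up to 1000 nt the drop was still seen in iPSC (9.24% at 100 FPKM or more against 23.2% at 5 to 20 FPKM) and in NSC (10.9% against 28.9%). In ESC the values for the same classes were 24.4% and 27.9%, and in SC 21.5% and 25.4%. With the longest exon held at 200 to 400 nt, ESC and SC showed no such drop. There the ESC share was 51.3% at 100 FPKM or more against 39.1% at 5 to 20 FPKM, and in SC 50.9% against 40.4%. In iPSC it was 34.3% against 47.7%, and in NSC 29.2% against 44.2%. The median FPKM of CDS-called transcripts was 7.16 in ESC and 5.88 in iPSC, and 7.99 in NSC and 13 in SC, against 5.90, 7.81, 10.4 and 12.4 without the call, so called transcripts were the higher side in ESC and SC and the lower side in iPSC and NSC. With a minimum of 5 FPKM the called side was lower in all 4, by a median log2 difference of -0.12 in ESC and -0.27 in SC. The share was also higher at the longest than at the shortest exon class within each of the 4 expression classes: at 20 to 100 FPKM in SC, 25.9% were called with a longest exon of at most 200 nt and 99.6% with an exon over 1000 nt.

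Base composition separated the cell types as well. The CDS share climbed with GC content in ESC, to 61.8% of transcripts above 60% GC against 26.6% of those at most 45% GC, and in SC to 64.0% against 32.2%. In iPSC the values were 57.5% and 32.8%, and in NSC 46.2% and 36.0%, with the NSC maximum of 49.0% at 50 to 55% GC.

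GGACT density differed little when pooled and more by transcript. Pooled over transcripts, called and uncalled coding sequences held 1.19 and 1.17 GGACT per kb in ESC, 1.20 and 1.09 in iPSC, 1.19 and 1.15 in NSC, and 1.19 and 1.18 in SC. The reverse complement AGTCC, counted as a comparison, stood at 1.10 per kb in called and 0.947 per kb in uncalled sequences in ESC. It stood at 1.08 and 0.920 in iPSC, 1.08 and 0.978 in NSC, and 1.11 and 0.922 in SC. Its pooled gap was thus wider than that of GGACT in every cell type. With the longest exon held at 400 to 1000 nt, transcripts with more than 4 GGACT were called in 78.4% of cases in ESC and those with 0 in 63.4%; for AGTCC the shares were 78.2% and 69.9%. In iPSC they were 95.7% and 55.9% for GGACT, and 91.5% and 68.0% for AGTCC. Longer sequences hold more of either motif. The median over transcripts was 1.11 GGACT per kb for those called in all 4 cell types and 0.842 per kb for those called in none. These sets also differed in median coding length, at 1980 and 792 nt, and AGTCC was not counted in this way. The median did not climb steadily with the number of cell types called. It was 1.13 per kb for NSC alone and 0.850 per kb for ESC, NSC and SC.

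Across cell types, most expressed transcripts were either called everywhere or nowhere. Of 9081 coding transcripts at 1 FPKM or more in all 4 cell types, 2288 were called in all 4 (25.2%, interval 24.3 to 26.1%) and 3032 in none (33.4%, 32.4 to 34.4%); calls in 1, 2 and 3 cell types took 14.3%, 13.3% and 13.8%. Transcripts called in all 4 had a median longest exon of 599 nt and a coding length of 1980 nt, against 186 nt and 792 nt for those called in none. Of the CDS called in any cell type, 37.8% were called in all 4; the same share was 33.0% for TsTS, 27.8% for the 3' UTR, 9.05% for the 5' UTR and 4.04% for TcSS.

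Calls shared by the pluripotent pair alone or the differentiated pair alone were not the frequent partial patterns. Calls shared by ESC and iPSC alone numbered 116 (1.28%) and by NSC and SC alone 121 (1.33%). Calls shared by ESC and SC alone numbered 385 (4.24%) and by iPSC and NSC alone 392 (4.32%), while the remaining ways of pairing gave 80 for ESC and NSC (0.881%) and 116 for iPSC and SC (1.28%). The intervals of the ESC and SC pattern (3.83 to 4.67%) and of the ESC and iPSC pattern (1.06 to 1.53%) did not overlap. ESC shared 83.9% of its calls with SC, 78.8% with iPSC and 67.7% with NSC, and for SC the shares of its own calls were 78.3% with ESC, 78.6% with iPSC and 69.2% with NSC.

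**Figure D3:**
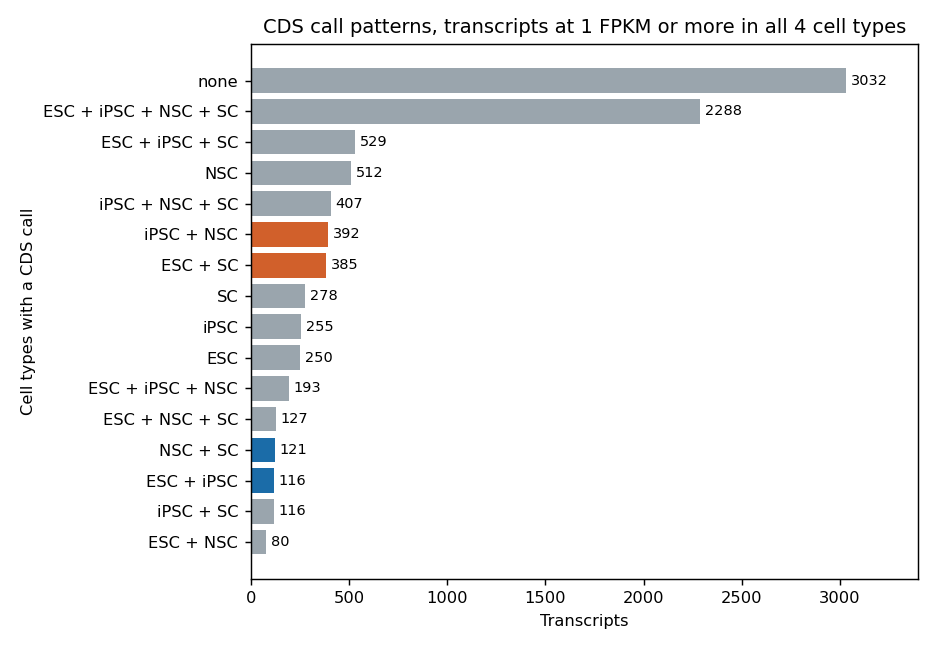
Number of coding transcripts (x axis) with each of the 16 patterns of CDS calls over the 4 cell types (y axis), among 9081 transcripts at 1 FPKM or more in all 4. The orange bars, ESC + SC with 385 and iPSC + NSC with 392, are longer than the blue bars, ESC + iPSC with 116 and NSC + SC with 121.

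The ESC and SC pattern and the iPSC and NSC pattern held different kinds of transcripts. Those called in ESC and SC alone were the more abundant, with medians of 21.2 FPKM in ESC and 16.7 in iPSC, with 20.9 in NSC and 33.6 in SC, and had a median coding length of 1005 nt and a 3' UTR of 659 nt. Those called in iPSC and NSC alone had medians of 5.31, 7.61, 11.5 and 14.4 FPKM, a coding length of 1441.5 nt and a 3' UTR of 1660.5 nt. The other regions showed this pairing only in part. TsTS calls were shared by ESC and SC alone in 498 transcripts and by iPSC and NSC alone in 338. Beside these stood 293 for ESC and iPSC alone and 65 for NSC and SC alone. For the 3' UTR the counts in this order were 149, 507, 218 and 43. There ESC and iPSC alone thus outnumbered ESC and SC alone. For TcSS they were 465, 356, 94 and 28. Each cell type has a single m6A library, so a difference between cell types and a difference between libraries cannot be told apart.

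Differences in RNA level beside these differences in call were uneven. Where the call was in ESC and not in SC, RNA stood 0.05 lower in ESC on the log2(FPKM + 1) scale (median -0.05), and where it was in SC and not in ESC the median was -1.56, ESC minus SC, beside -0.91 for all transcripts. For ESC against iPSC the medians were 0.38 and -0.35, beside 0.03 for all. For iPSC against NSC they were -0.51 where iPSC alone was called and -0.29 where NSC alone was called, beside -0.32 for all.

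Named transcripts illustrate the constant patterns, ranked here by their lowest FPKM over the 4 cell types. Called in all 4 and first in this ranking was Pkm, the glycolytic pyruvate kinase, at 882 FPKM in ESC and 798 in iPSC, with 878 in NSC and 1194 in SC. With it came Hspa8, the tubulin genes Tubb5 and Tubb4b, each with an exon over 1000 nt, the enolase gene Eno1, Pcbp1, whose coding sequence is a single exon of 1068 nt, the ER chaperone gene Calr, Hsp90aa1, Anp32b and Hnrnpa2b1. Called in none and first in the same ranking was Rplp1, a ribosomal stalk protein gene with a coding sequence of 342 nt, at 8921 FPKM in ESC and 4245 in iPSC, with 5407 in NSC and 3430 in SC. The others were 7 further ribosomal protein genes, the ferritin light chain gene Ftl1 and Gapdh, the glycolytic dehydrogenase, at 3649, 2574, 2635 and 7826 FPKM.

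The longest coding sequences called in all 4 were those of Syne2, a nuclear envelope linker of 20622 coding nt, Kmt2d, a histone H3 lysine methyltransferase of 16764 nt, Mdn1, a ribosome assembly ATPase, Dst, a cytoskeletal linker, and Ubr4, a ubiquitin ligase. Syne2 was called at 1.24 FPKM in ESC and 1.63 in iPSC, with 3.38 in NSC and 16.2 in SC. The longest called in none were Atm and Atr, the kinases of the DNA damage checkpoints, of 9198 and 7923 nt, Abca2, Kntc1 and Ankrd11. Ankrd11, with an exon of 6518 nt, is among the genes with an NR line, in which calls are nearly absent. Atr, with an exon of 878 nt, is not among them and stood at 2.81, 5.73, 7.63 and 3.47 FPKM.

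The most abundant transcripts called in 1 cell type alone were as follows. In ESC they included the ribosomal protein genes Rps15, Rps18, Rplp0, Rps6 and Rpl29, with Ptma and Chchd10. In NSC they included 3 ATP synthase subunit genes (Atp5b, Atp5g3 and Atp5o), the ferritin heavy chain gene Fth1, the glycolytic gene Pgk1 and Eif5a. Atp5b stood at 778 FPKM in ESC, 832 in iPSC, 723 in NSC, where it was called, and 1140 in SC, so its level was lowest where the call was present. In SC they included the translation elongation factor gene Eef1a1, Rps2, Rpl11, Rpl19 and the glutathione transferase gene Gstm2 at 33.8, 8.06, 5.95 and 10949 FPKM. In iPSC they included Selenoh, Ddx39a, Srsf1, a splicing factor, and Txnip.

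Transcripts called in both pluripotent types and neither of the others were led by Eif3l, an initiation factor subunit, at 206 FPKM in ESC and 199 in iPSC, with 130 in NSC and 165 in SC. Atf4, the transcription factor of the integrated stress response, stood at 149, 167, 119 and 240 FPKM. Cdt1, the replication licensing factor, stood at 64.7, 65.3, 24.3 and 4.82 FPKM, and Gart, a purine synthesis enzyme, at 99.4, 89.4, 37.6 and 27.5 FPKM. Called in NSC and SC alone were Cpe, a carboxypeptidase of peptide processing, at 3.64, 4.85, 113 and 1072 FPKM, the citrate synthase gene Cs, the serine synthesis gene Psat1, Odc1, which makes polyamines, and Bax, a promoter of apoptosis, at 323, 169, 77.1 and 451 FPKM.

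Patterns across the pairs that outnumbered these were looked at after the counts were seen. The transcripts called in ESC and SC alone were led by ribosomal and translation genes: Rpl7a, Rpl4, Rpl7, Rpl14, Eef1g and Eef1b2 were among the 10 most abundant, with the ubiquitin gene Ubb and the calmodulin gene Calm2. Rpl7a was present at 2010 FPKM in ESC and 1512 in iPSC, with 1890 in NSC and 1491 in SC. Those called in iPSC and NSC alone were led by Actb, the cytoplasmic beta-actin gene, at 1224, 870, 598 and 4189 FPKM, with the stress granule gene G3bp1, the ubiquitin-activating enzyme gene Uba1, the G protein gene Gnb1 and the amino acid transporter gene Slc7a5. Actb was lowest in the cell types in which it was called.

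CDS calls were spread unevenly over gene lists. A gene was represented by its most abundant coding transcript, and the share called among all genes at 1 FPKM or more was 42.1% in ESC and 46.5% in iPSC, and 45.1% in NSC and 47.5% in SC. Of 21 lists with at least 10 measured genes in each cell type, 12 lay above these shares in all 4 and 5 lay below in all 4.

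**Figure D4:**
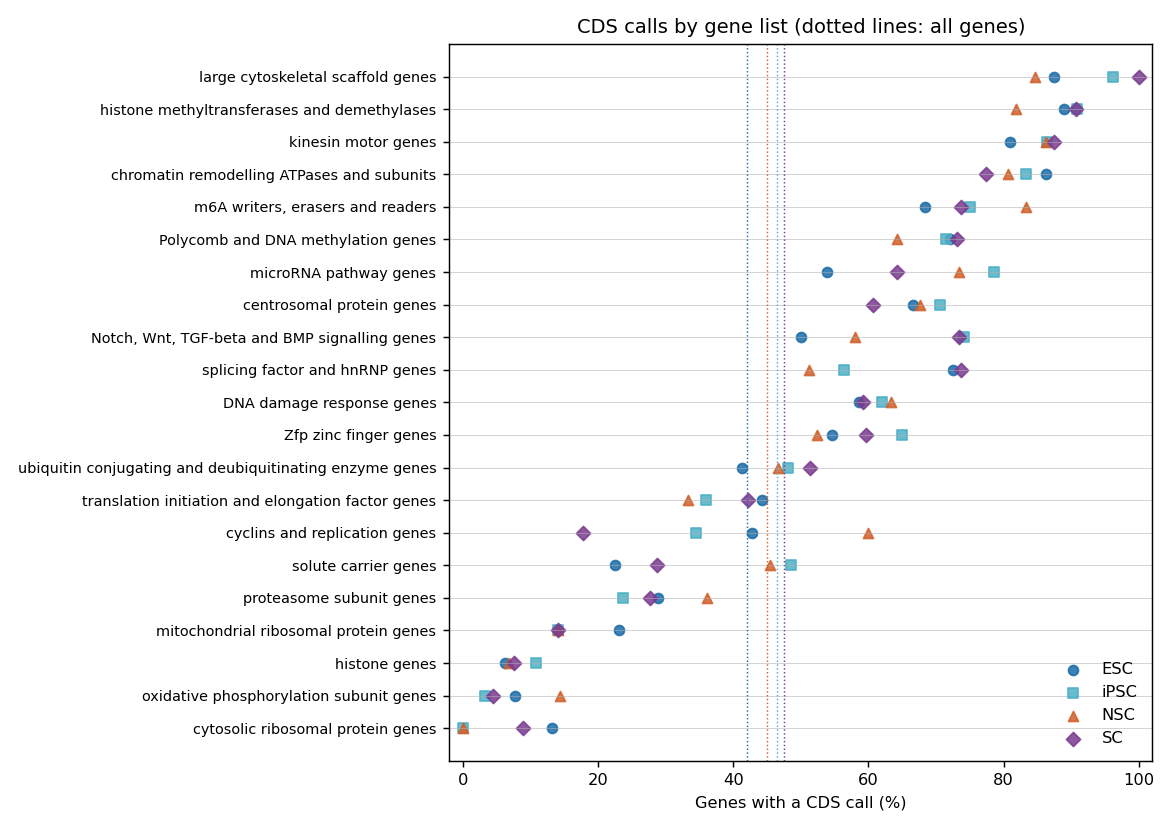
Percent of genes with a CDS call (x axis) in each of 21 gene lists (y axis), 1 symbol per cell type, among genes at 1 FPKM or more in that cell type; dotted lines mark all genes. Scaffold genes lie at 84.6% or more, ribosomal protein genes at 13.3% or less, and cyclin and replication genes spread from 17.9% in SC to 60% in NSC.

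The lists above included chromatin, cytoskeletal and RNA-regulating genes. Large cytoskeletal scaffold genes, with a median coding length of 7917 nt, were called in 21 of 24 in ESC and 25 of 26 in iPSC, and 22 of 26 in NSC and 27 of 27 in SC. Histone methyltransferase and demethylase genes were called in 24 of 27, 30 of 33, 27 of 33 and 29 of 32, and 22 of the 27 measured in all cell types were called in all 4, beside 24.9% of all genes. For the scaffold and the methyltransferase and demethylase lists, the differences from other genes were smaller within an exon class. With a longest exon of 400 to 1000 nt, 10 of 11 methyltransferase and demethylase genes were called in ESC (90.9% against 72.4%), 12 of 13 in iPSC (92.3% against 78.4%), 11 of 13 in NSC (84.6% against 64.9%), and 12 of 12 in SC (against 76.0%). Scaffold genes with an exon over 1000 nt were called in 12 of 13 in ESC (92.3% against 80.9%), 12 of 12 in iPSC (against 90.5%), 11 of 13 in NSC (84.6% against 76.8%), and 14 of 14 in SC (against 87.7%). Kdm5b, an H3K4 demethylase, was called throughout, while Kdm1a, the LSD1 demethylase, was called in ESC and SC alone at 56.0 FPKM in ESC and 55.6 in iPSC, with 61.9 in NSC and 36.9 in SC. Chromatin remodelling genes were called in 25 of 29, 25 of 30, 25 of 31 and 24 of 31, with Chd4 called in all 4 and Smarcb1, the core SWI/SNF subunit, in none. Kinesin motor genes were called in 17 of 21, 19 of 22, 25 of 29 and 21 of 24.

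The lists below included ribosomal, mitochondrial and proteasome genes. Cytosolic ribosomal protein genes were called in 11 of 83 in ESC and 0 of 82 in iPSC, and 0 of 79 in NSC and 7 of 79 in SC; 65 of the 78 measured everywhere were called in none, beside 33.4% of all genes. Rpl4, Rpl7, Rpl7a and Rpl14 were the members called in both ESC and SC. Most ribosomal protein genes have a longest exon of at most 200 nt, and of these 3 of 65 were called in ESC against 17.8% of other genes of that exon class, 0 of 64 against 15.4% in iPSC, 0 of 62 against 22.6% in NSC and 3 of 62 against 19.9% in SC. With the longest exon at 200 to 400 nt, 7 of 17 ribosomal protein genes were called in ESC (41.2%, against 34.7% of other genes of that exon class) and 0 of 17 in iPSC (against 40.9%), and 0 of 17 in NSC (against 40.5%) and 4 of 17 in SC (23.5% against 38.6%). Oxidative phosphorylation genes were called in 7 of 91 in ESC and 3 of 90 in iPSC, and 13 of 90 in NSC and 4 of 88 in SC; the 13 in NSC included the ATP synthase genes Atp5a1, Atp5b, Atp5g3 and Atp5o and the complex II gene Sdha. With a longest exon of at most 200 nt, oxidative phosphorylation genes were called in 5.19% in ESC against 17.8% of other genes, 2.63% against 15.3% in iPSC, 10.4% against 22.5% in NSC and 2.67% against 20.0% in SC. Mitochondrial ribosomal protein genes were called in 18 of 78 in ESC and 11 of 78 in each of iPSC, NSC and SC. With a longest exon of 200 to 400 nt the shares were 23.7% against 34.9% of other genes in ESC, 13.2% against 41.0% in iPSC, 13.2% against 40.6% in NSC and 15.8% against 38.7% in SC. Proteasome genes were called in 11 of 38, 9 of 38, 13 of 36 and 10 of 36.

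Histone and Zfp genes also stood below other genes of the same exon length. Histone genes, many of which have a single coding exon and give mRNAs without a poly(A) tail, were called in 3 of 48 in ESC and 5 of 46 in iPSC, and 3 of 44 in NSC and 4 of 53 in SC. At a longest exon of 200 to 400 nt, 0 of 35 histone genes were called in ESC and 0 of 32 in iPSC, and 0 of 31 in NSC and 0 of 35 in SC. Other genes of that exon class were called in 35.1%, 41.1%, 40.7% and 38.8%. Transcripts with a single coding exon of that length, histone genes among them, were seldom called. They were called in 16 of 96 in ESC and 4 of 88 in iPSC, and 7 of 87 in NSC and 15 of 90 in SC. The linker histone gene H1f10, with an exon of 564 nt, was called in all 4. Zfp zinc finger genes often hold their zinc fingers in a single long exon, with a median longest exon of 1404 nt, and were called in 112 of 205 in ESC and 159 of 245 in iPSC, and 156 of 298 in NSC and 149 of 250 in SC. With an exon over 1000 nt the Zfp share was 57.2% in ESC against 84.8% of other genes, 70.3% against 94.2% in iPSC, 56.2% against 80.9% in NSC and 61.4% against 91.9% in SC. These classes were compared after the list values were known, near-identical zinc finger and histone genes can share reads, and how the authors assigned such reads is not given in the sources used here.

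Other lists differed between cell types. Solute carrier genes, which encode membrane transporters, were called in 40 of 178 in ESC (22.5%) and 85 of 175 in iPSC (48.6%), and 80 of 176 in NSC (45.5%) and 54 of 188 in SC (28.7%). Of solute carrier genes with a longest exon of at most 200 nt, 0 of 53 were called in ESC against 17.8% of other genes, 8 of 50 against 15% in iPSC, 7 of 50 against 22.3% in NSC and 2 of 50 against 19.8% in SC. With the longest exon at 200 to 400 nt the shares were 10.3% in ESC against 35.2% of other genes, 41.4% against 40.7% in iPSC, 47.7% against 40.2% in NSC and 15.5% against 38.9% in SC. At 400 to 1000 nt they were 59.6% against 72.8% in ESC, 86.0% against 78.3% in iPSC, 64.8% against 65.0% in NSC and 60% against 76.5% in SC. In ESC and SC the list lay under other genes in each of these classes, in iPSC in none of them, and in NSC in the shortest and, by a small margin, the longest. Splicing factor and hnRNP genes went the other way, with 29 of 40 called in ESC and 22 of 39 in iPSC, and 20 of 39 in NSC and 28 of 38 in SC. Hnrnpc, Hnrnph1, Hnrnph3, Srsf6 and Srsf11 were among those called in ESC and SC and in neither of the others. Cyclin and replication genes were called in 12 of 28 in ESC and 10 of 29 in iPSC, and 18 of 30 in NSC and 5 of 28 in SC. Pcna, the sliding clamp of DNA replication, was called in ESC at 176 FPKM, in iPSC at 239 and in NSC at 159, and not in SC at 89.2. The helicase subunit genes Mcm2, Mcm3 and Mcm7 were called in all 4, and the kinase gene Cdk4 in none, at 266, 220, 319 and 395 FPKM.

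The collagen and keratin lists are small. Collagen genes were called in 6 of 6 in ESC and 5 of 9 in iPSC, and 4 of 11 in NSC and 22 of 22 in SC. The SC members included Col4a1 at 950 FPKM and Col1a1 at 540 FPKM; all 14 collagen genes with a longest exon of 200 to 400 nt were called there, beside 38.3% of other genes of that class. Keratin genes were called in 6 of 6 in both ESC and iPSC, in 0 of 7 in NSC, and in 3 of 5 in SC. Krt8, a simple epithelial keratin, was called in ESC at 15 FPKM and in iPSC at 11.5, but not in NSC at 265 FPKM or in SC at 3.53.

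Pluripotency and reprogramming genes were called in 20 of 28 in ESC and 17 of 30 in iPSC, and 1 of 6 in NSC and 5 of 6 in SC. Pou5f1, called in ESC and iPSC at 602 and 554 FPKM, had a second region called, TcSS in ESC and TsTS in iPSC. Nanog, the homeobox factor of naive pluripotency, was called in ESC at 254 FPKM and in iPSC at 232 FPKM, but not in NSC or SC, where it stood at 0.0296 and 0.137 FPKM. Zfp42, Esrrb, Utf1, Nodal, Gdf3, Tbx3 and Prdm14 were likewise called in both pluripotent types alone. Genes of high level without a CDS call in either were Dppa5a, at 4078 FPKM in ESC and 1986 in iPSC, together with Tdgf1, the Cripto co-receptor gene, at 381 and 439 FPKM. Their longest coding exons are 183 and 115 nt, against 384 nt for Pou5f1 and 411 nt for Nanog. Klf2, Fgf4, Dppa4 and Nr0b1 were called in ESC and not in iPSC, with Klf2 at 223 FPKM in ESC and 49.5 in iPSC. Tfcp2l1 was called in iPSC alone, at 43.8 FPKM in ESC and 8.11 in iPSC.

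Several members are expressed in NSC or SC, and there the call and the level came apart. Sox2, a single coding exon of 957 nt, was called in ESC at 84.6 FPKM, in iPSC at 119 and in NSC at 14.3, but not in SC at 0.255. Klf4, a Krüppel-like reprogramming factor, was called in ESC at 136 FPKM, in iPSC at 62.1 and in SC at 21.2, but not in NSC, where its level was highest at 303 FPKM and the 3' UTR was the only called region. Myc was called in ESC, iPSC and SC at 0.807, 5.43 and 7.07 FPKM for its isoform NM_001177354, and had no called region in NSC at 579 FPKM. For Klf4 and Myc the cell type without the CDS call was thus the one with the highest level. Of all coding transcripts at 100 FPKM or more in NSC, 18.3% were called.

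**Figure D5:**
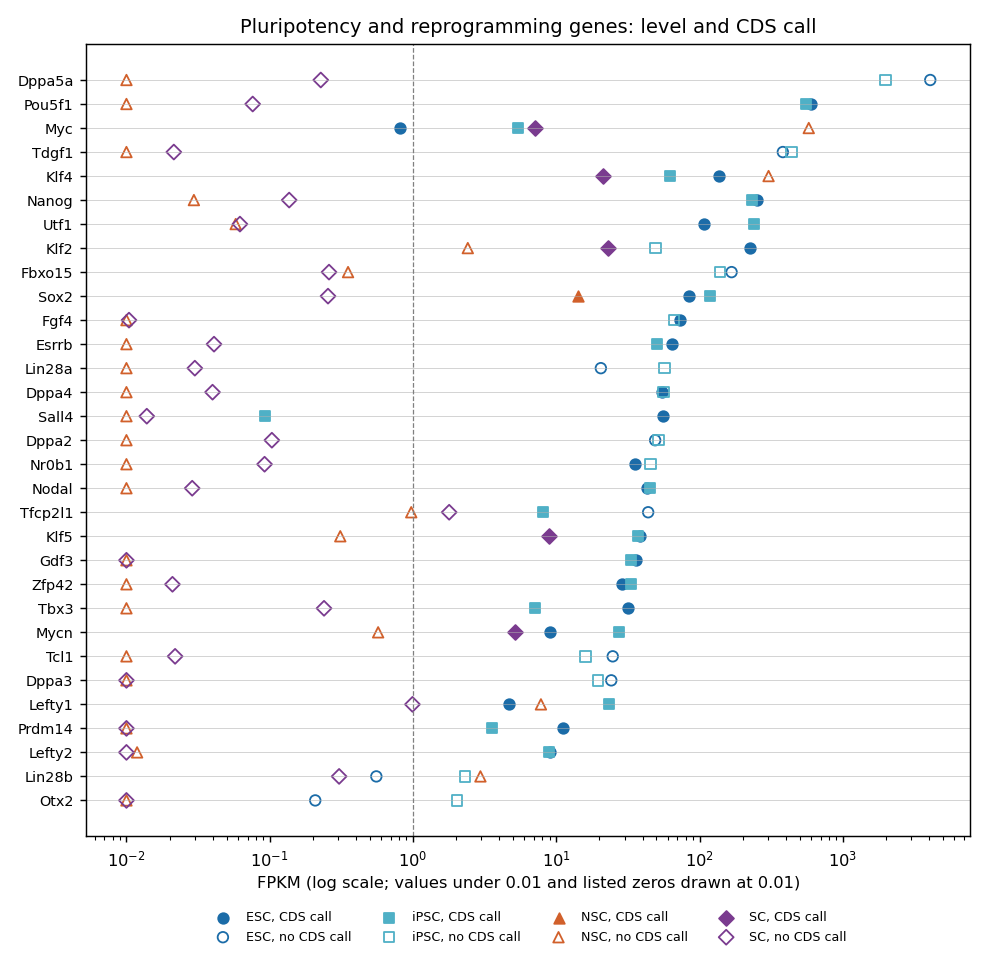
FPKM (x axis, log scale) of 31 pluripotency and reprogramming genes (y axis) in the 4 cell types, 1 symbol per library; filled symbols have a CDS call and open symbols have none, and the dashed line marks 1 FPKM. Filled symbols gather at the pluripotent levels on the right, while Klf4 at 303 FPKM and Myc at 579 FPKM in NSC are open, as are Dppa5a and Tdgf1 in ESC and iPSC.

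Most genes of the m6A machinery carried a CDS call, but so did most transcripts with a longest coding exon of similar length. Of these genes 13 of 19 were called in ESC and 15 of 20 in iPSC. In NSC 15 of 18 were called and in SC 14 of 19. Of 17 measured everywhere, 11 were called in all 4, beside 24.9% of all genes. Their median longest exon is 608 nt. Transcripts with a longest exon of 400 to 1000 nt were called in 73.0% of cases in ESC and 78.7% in iPSC. In NSC that share was 65.9% and in SC 77.4%. The list was not compared with other genes within an exon class. Among the writers, Mettl3, the catalytic subunit, was called in ESC at 9.78 FPKM, in NSC at 12 and in SC at 20.7, and not in iPSC at 12.1. Mettl14, its partner, was called in none at 6.48 FPKM in ESC and 10.8 in iPSC, with 11.1 in NSC and 9.42 in SC; its longest coding exon is 302 nt. Of the accessory subunits Wtap, Zc3h13, Rbm15 and Rbm15b were called in all 4, and Virma and Cbll1 in iPSC, NSC and SC but not ESC, where they stood at 3.33 and 2.35 FPKM.

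Both erasers were called in all 4. Fto was present at 9.69 FPKM in ESC and 11.1 in iPSC, with 26.3 in NSC and 31.8 in SC, and Alkbh5 at 9.45, 11.3, 27.6 and 22.7 FPKM. Alkbh5 was called in the 5' UTR, CDS and TsTS in every cell type. Among the readers, Ythdf1 had the CDS as its only called region in all 4, at 17, 55.4, 25.6 and 30.9 FPKM, and Ythdf2 and Ythdc1 were also called in all 4. Ythdf1 and Ythdf2 carry coding exons of 1521 and 1584 nt. Ythdf3, with an exon of 1599 nt, had no call in any region, but is among the genes with an NR line. The Igf2bp readers varied: Igf2bp1 was called in ESC and iPSC, where it is expressed at 30.1 and 28.1 FPKM, Igf2bp2 in iPSC and NSC, and Igf2bp3 in none.

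Signalling genes of the Notch, Wnt, TGF-beta and BMP pathways were called in 12 of 24 in ESC and 23 of 31 in iPSC, and 18 of 31 in NSC and 22 of 30 in SC. The receptor gene Notch1 and the Wnt regulators Axin1, Axin2 and Apc were called in all 4. Ctnnb1, which encodes beta-catenin, was not called in ESC at 53.2 FPKM but was called in iPSC at 80.3, in NSC at 110 and in SC at 137. The short target genes Id1, Id3 and Hes1 were called in none; Hes1 was present at 47.9 FPKM in ESC and 10.8 in iPSC, with 29.7 in NSC and 88.1 in SC.

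Of the Sertoli markers 13 of 18 were called in SC, beside 47.5% of all genes. With a longest exon of 400 to 1000 nt this was 10 of 10, against 76.0% of other genes. Of the neural stem cell markers 8 of 10 were called in NSC, beside 45.1% of all genes. Inha, the inhibin alpha subunit, was called at 719 FPKM in SC alone, and Wt1 and Gata4 at 105 and 176 FPKM in SC alone. Clu, a secreted chaperone abundant in Sertoli cells, was called in all 4 with the CDS as sole region, at 9.67 FPKM in ESC and 11.3 in iPSC, with 0.615 in NSC and 11071 in SC. Not every abundant marker was called: Aldh1a1 at 1609 FPKM and Cldn11 at 257 FPKM in SC had no CDS call, with longest coding exons of 185 and 230 nt. Pax6 was called in NSC alone, and Nes, an intermediate filament gene with an exon of 4607 nt, was called in all 4 from 1.96 FPKM in iPSC to 85.9 FPKM in SC.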

How the data were processed

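Each of 4 cell types had 1 m6A-enriched and 1 RNA library. Per the file headers, the authors deposited 1 line per RefSeq transcript with FPKM values from the RNA libraries and 0/1 modification calls for 5 regions. Per the submitters' processing notes the tools were Cufflinks 2.0.2, TopHat2 2.0.4 and CASAVA, with build mm9; their roles are unstated. How modified regions were called (program, threshold, control) is not stated in the labels or headers. Read depth is unknown.

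Symbols came from a RefSeq table (GRCm38.p6), which named 18352 coding transcripts, and from GENCODE M21, which named 59 more; 167 stayed unnamed. Coding sequence, exon and UTR lengths came from GENCODE M21 (GRCm38), which covered 98.7% of coding transcripts. The authors' build is mm9, so coordinates are left out, and lengths may differ from the authors' models.

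Calls were counted over transcripts at 1 FPKM or more, with exact 95% binomial intervals; medians have order-statistic intervals, and level differences used log2(FPKM + 1), which understates changes of low transcripts. The counting code was tested on simulated data. Gene lists (31) were read by 1 transcript per gene, that of highest mean FPKM. Named genes followed fixed rules: the most abundant with each call pattern (10 for all, none and the pluripotent or differentiated pair, 8 for a single cell type), the 10 most abundant with the CDS as sole region, up to 4 of each list by mean FPKM, all pluripotency and m6A genes, the 5 most abundant with isoforms that differ per cell type, the 5 longest called in all and in none, and identity markers; unnamed and Y-linked genes were left out, and 1 gene that the rules name is not reported here. For genes called in all, in none or with the CDS as sole region, abundance meant the lowest FPKM over the 4 cell types. For the pluripotent or differentiated pair it meant the lowest FPKM within the pair. Members, lists and rules were chosen with earlier results of these data known. Other list members named in passing, and the patterns of ESC with SC and of iPSC with NSC, were chosen after their values were seen. Python 3.11.15, pandas 2.3.3, SciPy 1.17.1 and matplotlib 3.10.9 were used.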

Additional observations from a re-analysis of the deposited data

Results flagged for a closer look

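CDS calls also occurred on transcripts whose RNA value was exactly 0, a signal outside the expressed transcripts that the shares count. They numbered 123 of 724 transcripts listed at 0 FPKM in ESC and 104 of 467 in iPSC, and 91 of 1367 in NSC and 106 of 989 in SC. Of these, 114 in ESC and 87 in iPSC, and 77 in NSC and 97 in SC belong to genes with another coding transcript at 1 FPKM or more in that cell type. Whether reads were assigned to the other isoform was not tested.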

How the results depend on the processing

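With no minimum FPKM, the CDS share was 32.3% in ESC and 37.6% in iPSC, and 36.3% in NSC and 38.8% in SC, and with a minimum of 5 FPKM 45.6%, 44.8%, 44.1% and 50.4%, so iPSC lay above ESC at the minimum of 1 and below it at 5. Scaling FPKM by the median ratio gave 41.7% in ESC and 49.9% in SC. Genes with a single coding transcript gave 45.4% in iPSC, 44.1% in NSC, 46.15% in SC, and 1 transcript per gene 47.5% in SC. Leaving out genes with an NR line and suffixed lines, a choice made after seeing the data, gave 43.5%, 48.4%, 46.4% and 49.7%. Without a minimum, 7656 transcripts were called in none, 682 in iPSC and NSC alone, 424 in ESC and iPSC alone and 440 in NSC and SC alone; at 5 FPKM these were 1828, 167, 59 and 45, with 1153 called in all 4. The CDS was the sole called region in 21.5% in ESC and 20.8% in iPSC without a minimum, in 17% in ESC and 25.0% in SC at 5 FPKM, and in 20.2% in iPSC and 23.6% in NSC for genes with 1 coding transcript.

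The median log2 difference in FPKM between called and uncalled transcripts reversed at a minimum of 5 FPKM in ESC (-0.12, against 0.24) and SC (-0.27, against 0.06), and was -0.51 in iPSC and -0.47 in NSC; a pseudocount of 5 gave -0.23 in iPSC. The cause was not tested. The median coding length of called transcripts was 1420 nt in ESC and 1743 nt in iPSC, and 1725 nt in SC at 5 FPKM, and 1416, 1674, 1597 and 1707 nt when averaged over 4 FPKM classes. With 5 equal classes of FPKM the highest held 42.3% called in ESC and 33.7% in iPSC, and 29.4% in NSC and 42.6% in SC. The median log2 difference, cell type with the call minus the other, was 0.37 for ESC and iPSC (0.42 with a pseudocount of 0.1, 0.22 with 5), 1.01 for ESC and SC (1.15, 0.65 and, scaled, 0.80), and, with a pseudocount of 5, 0.23 for ESC and NSC and 0.15 for iPSC and SC; scaling reversed it for NSC and SC (-0.044, against 0.03). Of 549 list values under alternatives, 534 stayed within their interval. No paired analysis was possible because each cell type has 1 library of each kind, and for the same reason no library could be left out.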
